A study of Proteus anguinus with 14 samples.

Results

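Lung and gut of the olm Proteus anguinus, a cave salamander that keeps its larval form and its gills, were compared directly. Of the 14 RNA-seq libraries of the series, 5 entered this comparison: the 3 lung libraries of the olm individuals p4, p5 and p6, and the 2 gut libraries of p4 and p5. No genotype, sex or age is given. The animals came from the wild, were kept in aquaria in the dark and served as non-infected controls of an infection study, so that lung and gut share this history and no organ was treated. The libraries were made from poly(A) RNA of organ samples kept in RNAlater, were sequenced in 1 run, and were chosen here by the organ and animal in their titles. In the tissue field of the labels lung and liver are exchanged, as are gut and heart. The 2 genes that mark the organs go with the titles. SFTPB, the hydrophobic surfactant protein B, stood at 22.2, 30.8 and 29.4 in the libraries titled lung and at 0 and 0 in those titled gut. The keratin gene KRT19, typical of single-layered epithelia, stood at 30.8, 7.61 and 5.94 in lung and at 15936 and 13894 in gut. The study names p4, p5 and p6 as different individuals, and p-values measure the spread between these libraries. Levels are given as normalized TPM, that is, the deposited TPM (a length-corrected share of all transcripts) divided by a scaling factor per library, in the order p4, p5, p6 for lung and p4, p5 for gut. A level of 0 is given as listed in the table and no fold is formed against it.

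Lung and gut both arise from the foregut endoderm and the mesoderm around it. The lung bud is set apart from the rest of the gut tube by the transcription factor NKX2-1, while CDX factors give the intestine its identity. In the intestine, absorptive cells carry a brush border with digestive enzymes and transporters, and goblet cells secrete mucins. In a salamander lung, a thin epithelium that secretes surfactant lies over a dense net of capillaries filled with nucleated red blood cells. In bulk tissue, fewer cells of a type and less RNA per cell cannot be told apart.

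Before the organs were compared, the libraries were compared with their titles, and the p6 lung library went against its own. The p5 and p6 lung libraries were the most alike of the 10 pairs of the same organ: the SD of their log2 ratio was 0.459 over the 3783 genes with a summed level of at least 20, against 0.640 to 1.16 in the other 9 pairs. Between the p4 and p5 lung libraries 496 of 12023 genes differed by at least 4-fold, and the p6 lung library lay between them for 476 of these and nearer to p5 for 414. In liver, where 334 genes separated p4 from p5 by as much, the p6 library lay between them for 215 and nearer to p5 for 51. Genes that mark animal p5 were then sought without the lung libraries. At least 4-fold higher in the p5 gut library than in the p4 gut library, and in the p5 liver library than in both other liver libraries, were 41 genes. Their median level was 27.4 in p5 gut and 27.0 in p5 liver, 22.02 in p5 lung and 14.8 in p6 lung. In the brain, heart and skin libraries of p4 and p6, which the rule does not use, it was between 1.44 and 1.77. It was 1.04 in p4 lung. The medians of 0.915 in p4 gut and of 1.26 and 1.11 in p4 and p6 liver follow from the rule. By the same rule 49 genes were lower in p5 gut and liver, with medians of 1.24 and 1.38. Their median was 16.4 in p4 lung, 1.34 in p5 lung and 6.70 in p6 lung, and 10.6 to 22.5 in brain, heart and skin. The order of the gut and liver libraries again follows from the rule. With an 8-fold limit 18 and 10 genes remained, and the 10 lowered genes had medians of 78.4, 1.08 and 33.6 in the p4, p5 and p6 lung libraries.

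**Figure D1:**
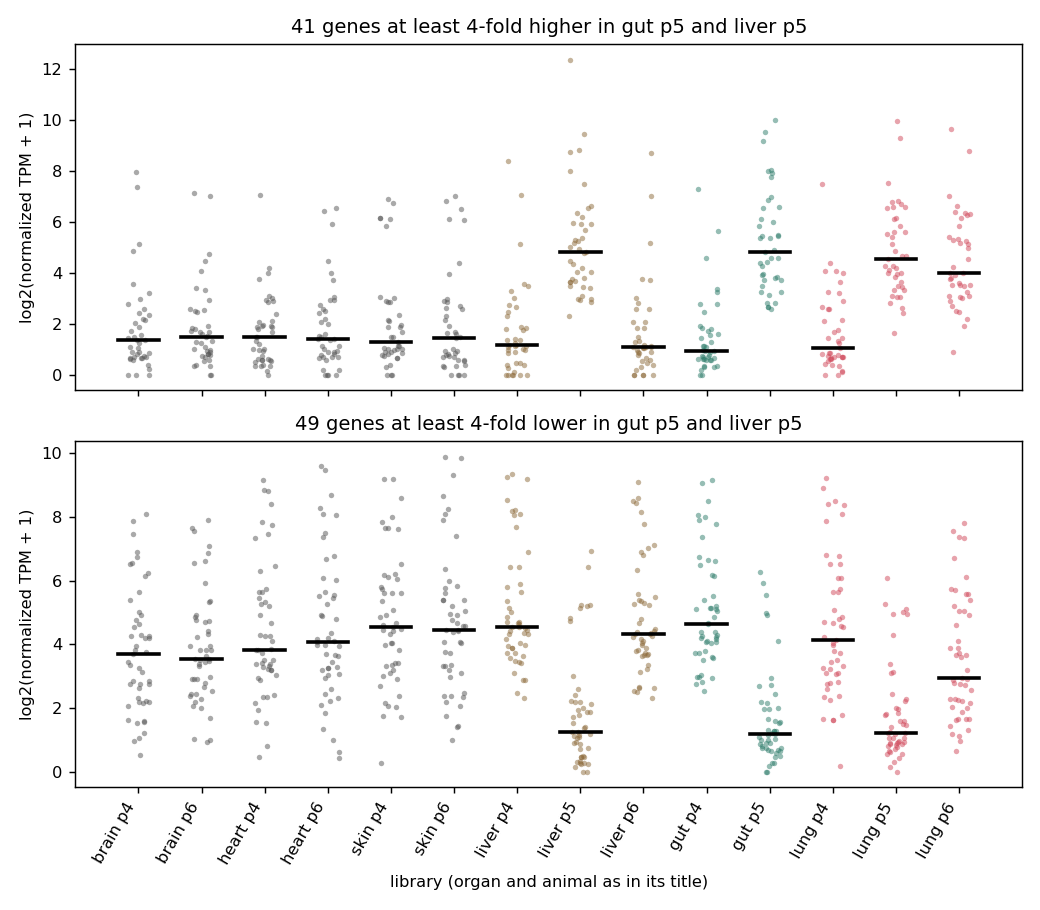
Levels, as log2(normalized TPM + 1), of the 41 genes raised (top) and the 49 genes lowered (bottom) in the p5 gut and p5 liver libraries, in each of the 14 libraries. Each point is a gene and each bar a median. In both panels the p6 lung library lies between the p4 and p5 lung libraries. The p6 brain, heart and skin libraries lie with p4. The order of the gut and liver libraries follows from the rule that chose the genes.

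The p6 lung library thus held transcripts that mark animal p5, at a lower level, together with transcripts hardly seen in the p5 libraries. How this came about was not tested. The assembly to which all reads were mapped was built from reads of animal p4 alone. Its part in differences between p4 and the other animals was not tested. The p5 and p6 lung libraries may not stand for 2 animals. Calls of named genes, and the total counts of calls, are therefore given with and without the p6 library. Where a gene that passed the test did not pass it without that library, the adjusted p without it follows the first. Fold changes, list medians, counts of genes whose libraries do not overlap and counts by highest library include the p6 library. So does the set of genes near 0 in p4 lung. The study's sample table gives the second gut library to animal p6 and the p6 heart library to p5. With p5 replaced by p6 of the liver in the rule, 0 genes were raised and 0 lowered together with the second gut library, and the heart library titled p6 did not carry the p5 pattern, so the titles were kept.

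The lung libraries also differed in transcripts of the liver. The hepatocyte genes, of which 33 of 36 in the table were tested, summed to 565 in p4 lung, 22904 in p5 lung and 17358 in p6 lung, to 4620 and 1355 in gut, and to 109434 to 207785 in liver. ALB, serum albumin, stood at 233, 13234 and 9889 in lung, 36.3 and 120.2 in gut and 126266, 66838 and 58562 in the p4, p5 and p6 liver libraries. Over the 33 genes the level in lung was a median of 0.466% of the liver of the same title in p4, 21.5% in p5 and 13.4% in p6. The p6 level was a median of 0.751 times the p5 level. Listed lung genes were in turn higher in the p5 liver library. The 4 tested genes of lung epithelium and surfactant summed to 4.72, 54.2 and 3.64 in the p4, p5 and p6 liver libraries. Of these sums PDPN, which is also among the 41 genes that mark p5, made up 1.27, 12.4 and 1.11. SFTPB added little to them. Only the p4 lung library was thus nearly free of hepatocyte transcripts, and it was also the one without the marks of p5. The part of liver transcripts in the differences below was not tested.

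**Figure D2:**
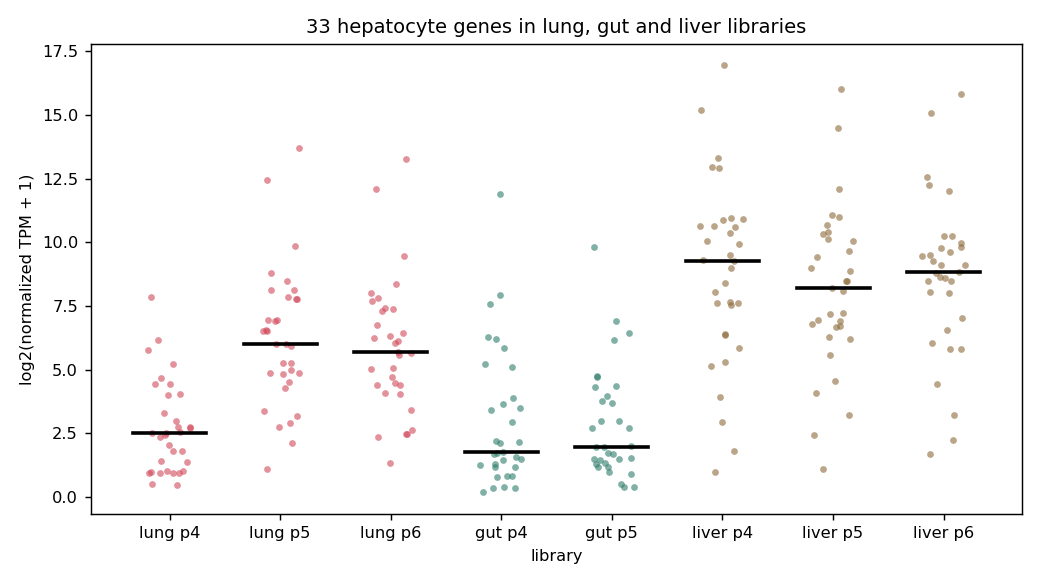
Levels, as log2(normalized TPM + 1), of the 33 tested hepatocyte genes in the lung, gut and liver libraries. Each point is a gene and each bar the median of a library; p4 lung lies near the gut libraries, and p5 and p6 lung lie between gut and liver.

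Of 12023 genes tested by limma on log2(normalized TPM + 1), 256 were higher in lung (2.13%) and 556 were higher in gut (4.62%) at an adjusted p under 0.05 and at least 2-fold. Without the p6 lung library 64 and 152 genes passed, nearly all of them among the first (64 and 151). With the p5 and p6 lung libraries averaged into 1, 99 and 214 passed, all of them among the first. A fit with only the p4 library for lung was also run. A single library has no spread of its own, so the spread in that fit came from the other organs. The p5 lung library left out gave 112 and 226 genes. Leaving out the p4 lung library gave 348 and 435, the p4 gut library 99 and 230, and the p5 gut library 122 and 369. Where animals p4 and p5 were paired by title, 189 and 367 genes passed, with 1 residual degree of freedom and the p6 lung library dropping out of the comparison. Where this pairing changed the call of a gene described below, its adjusted p is given as that with the animals paired. The median log2 fold change of all genes was -0.0047. TPM as deposited moved it to -0.53, and the split became 172 higher in lung and 1487 higher in gut. At least 16-fold higher were 89 of the gut genes and 34 of the lung genes. Fold changes on this scale are smaller than true ones for genes near 0. No symbol was given for 68 of the lung and 128 of the gut genes.

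**Figure D3:**
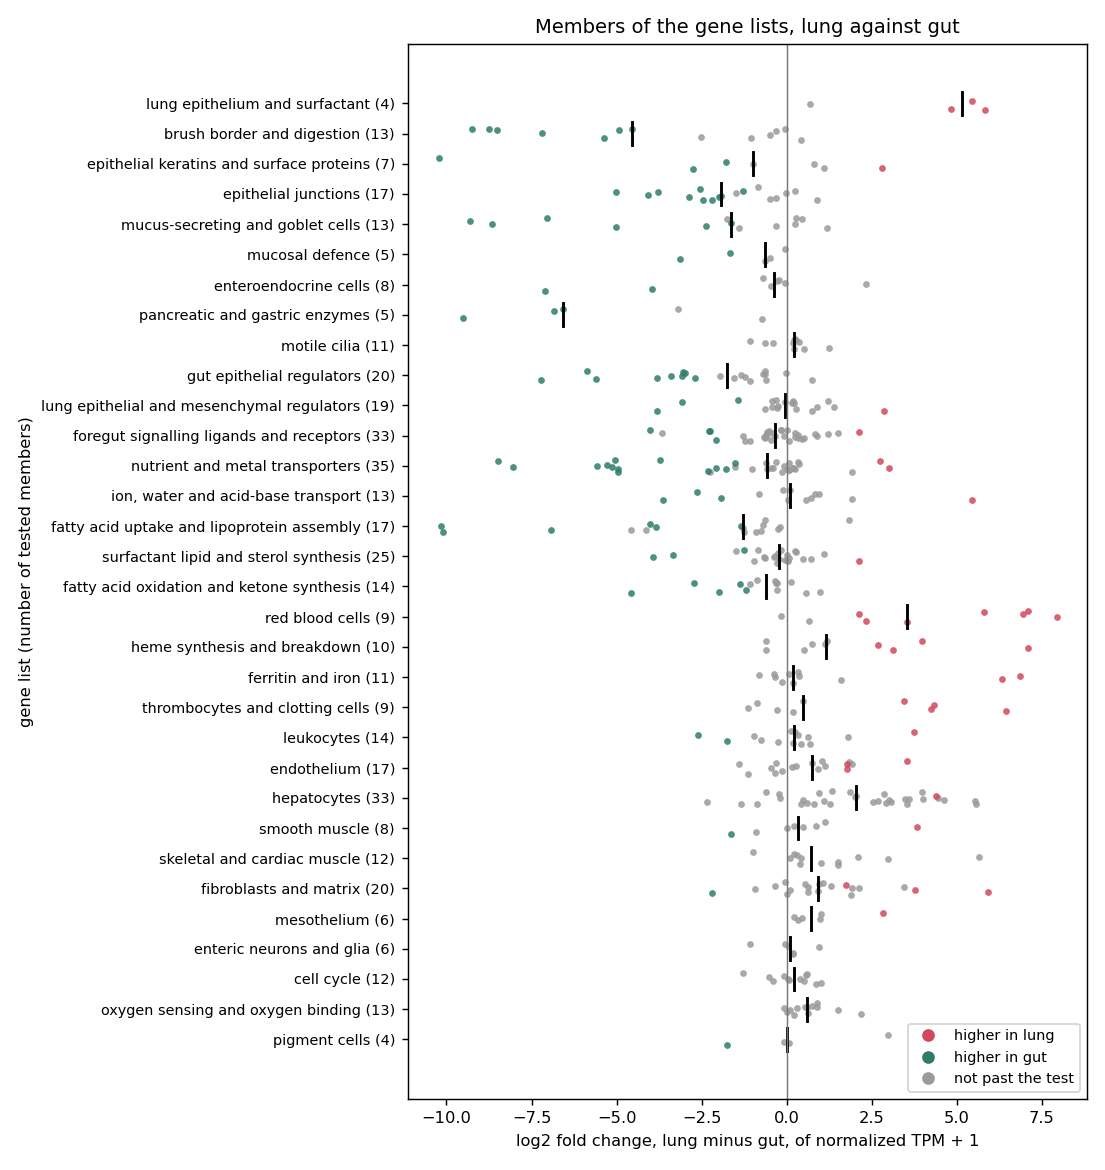
Log2 fold change (lung minus gut, on normalized TPM + 1) of each tested member of the 32 gene lists, with the number of tested members in brackets. Points are genes, coloured by the test, and black bars are list medians; the lists of brush border and pancreatic enzymes lie farthest to the gut side and those of lung epithelium and red blood cells farthest to the lung side.

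The lung epithelium was marked by few genes. Of 26 genes listed for lung epithelium and surfactant 8 were in the table and 4 were tested, and 3 of these 4 were higher in lung with or without the p6 library. SFTPB, whose levels are given above, was listed at 0 in both gut libraries and reached at most 2.16 in any other organ, in p5 liver (adjusted p = 0.000902). SLC34A2, the sodium-phosphate cotransporter of surfactant-secreting cells in mammals, stood at 293, 142 and 176 in lung and 2.57 and 4.59 in gut (log2 fold change 5.45, SE 0.40, adjusted p = 0.00157). GPRC5A, a receptor-like membrane protein abundant in mammalian lung epithelium, stood at 99.8, 71.8 and 58.9 in lung and 0 and 0.774 in gut (adjusted p = 0.00112). All lung libraries were above all gut libraries for these 3 genes, and p4 was the highest lung library for SLC34A2 and GPRC5A. The fourth, PDPN, a membrane glycoprotein of flat alveolar cells and lymphatic vessels, stood at 0.267, 10.3 and 10.3 in lung and 0.657 and 6.02 in gut. It overlapped between the organs, was near 0 in both p4 libraries and belonged to the 41 genes that mark p5.

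Among keratins and surface proteins, 3 of 7 tested genes were higher in gut and 1 in lung (2 and 0 without the p6 library), with a list median of -1.01. KRT19 was the gene with the largest difference of all that carry a symbol (log2 fold change -10.23, SE 0.66, adjusted p = 0.00112), and it held 2.19% and 1.83% of all TPM in gut. KRT5, a keratin of basal cells, went the other way, at 21.2, 46.5 and 31.7 in lung and 3.504 and 3.85 in gut (log2 fold change 2.80, SE 0.37, adjusted p = 0.0119, or 0.0685 without the p6 lung library). SPINT2, an inhibitor of epithelial serine proteases, stood at 53.7, 70.9 and 74.6 in lung and 366 and 554 in gut (log2 fold change -2.76, SE 0.30, adjusted p = 0.00587). E-cadherin, given as cdh1, stood at 10.5, 22.2 and 17.4 in lung and 62.00 and 52.7 in gut (log2 fold change -1.77, SE 0.36, adjusted p = 0.0436, or 0.164 without the p6 lung library, and 0.0844 with the animals paired). LGALS4, a galectin of the gut lining in mammals, was abundant in both organs, at 1125, 1073 and 1121 in lung and 313 and 862 in gut, and did not pass the test (adjusted p = 0.252).

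Of 13 brush border and digestive genes, which absorptive cells express, 7 were higher in gut (5 without the p6 library) and 0 in lung, with a median log2 fold change of -4.56. MEP1B, the beta subunit of the protease meprin, stood at 3.77, 1.04 and 0.797 in lung and 2379 and 1065 in gut (log2 fold change -9.26, SE 0.55, adjusted p = 0.000919). SI, sucrase-isomaltase, stood at 4.26, 3.46 and 2.63 in lung and 1674 and 1551 in gut (log2 fold change -8.52, SE 0.26, adjusted p = 0.000342). The motor of the microvilli, MYO1A, stood at 2.62, 3.57 and 2.94 in lung and 573 and 598 in gut (log2 fold change -7.19, SE 0.24, adjusted p = 0.000342). CUBN, a receptor for vitamin B12 bound to intrinsic factor, stood at 1.17, 1.47 and 1.69 in lung and 101 and 53.7 in gut (log2 fold change -4.94, SE 0.35, adjusted p = 0.00147). In these 4 genes every gut library lay far above every lung library. ANPEP, aminopeptidase N, was less even, at 1.47, 5.94 and 4.45 in lung and 48.1 and 727 in gut (log2 fold change -5.38, SE 1.12, adjusted p = 0.0476, or 0.143 without the p6 lung library), and it was the only gene of the 41 raised in p5 that passed the test. USH1C, a scaffold of the microvillus tips, stood at 1.19, 0.948 and 0.709 in lung and 15.5 and 126 in gut (log2 fold change -4.56, SE 0.82, adjusted p = 0.0311, or 0.112 without the p6 lung library). ALPI, intestinal alkaline phosphatase, stood at 4.56, 9.95 and 9.96 in lung and 7.47 and 8.55 in gut and did not pass the test (adjusted p = 0.975).

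**Figure D4:**
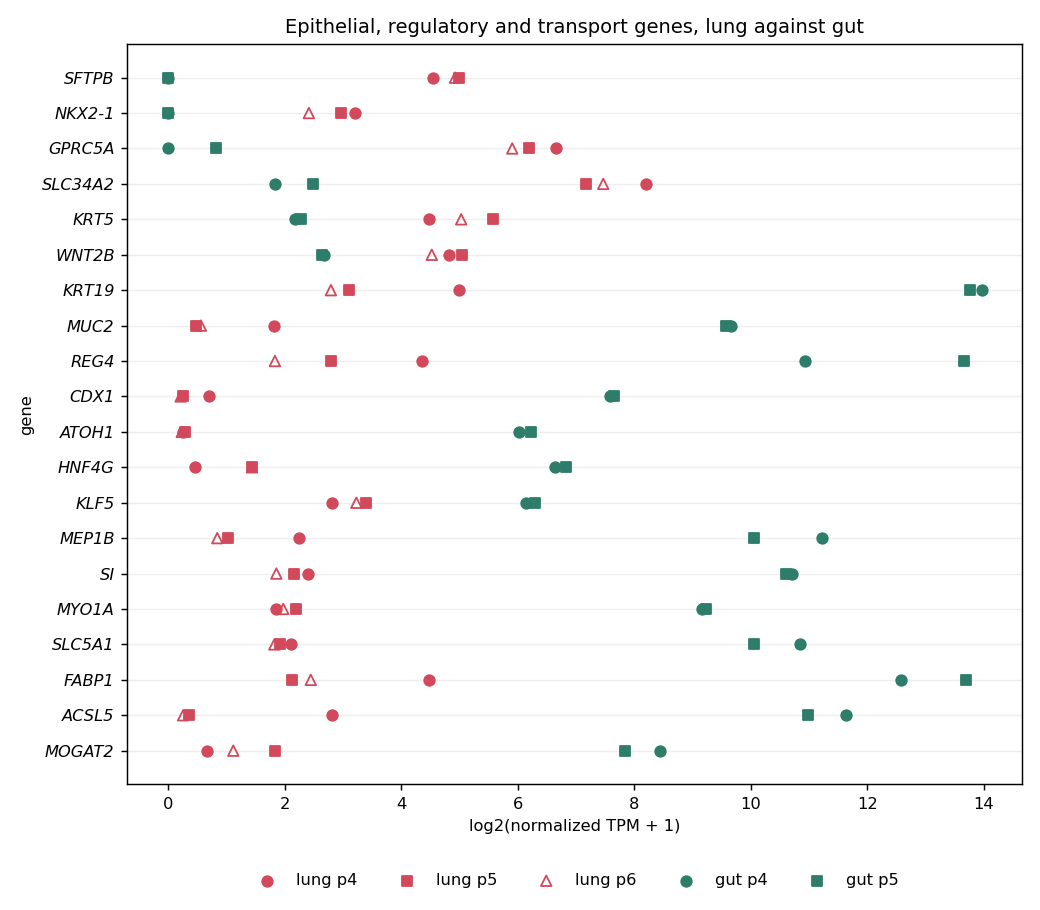
Levels of 20 epithelial, regulatory, transport and lipid genes in each of the 5 libraries, as log2(normalized TPM + 1). Each symbol is a library; lung (red) and gut (green) do not overlap for any of the 20 genes, and p4 lung is the highest lung library for KRT19, MUC2, REG4, FABP1 and ACSL5, among others.

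Secretory cells followed. Of 13 mucus and goblet cell genes 6 were higher in gut (4 without the p6 library) and 0 in lung, with a median of -1.63. MUC2, the gel-forming mucin of the intestine, stood at 2.52, 0.394 and 0.479 in lung and 806 and 758 in gut (log2 fold change -8.66, SE 0.46, adjusted p = 0.000787). REG4, a secreted lectin, stood at 19.4, 5.91 and 2.57 in lung and 1943 and 12974 in gut (log2 fold change -9.30, SE 1.01, adjusted p = 0.00586), so that the gut libraries themselves differed by more than 6-fold. TFF2, a trefoil peptide secreted with mucus, stood at 0.8003, 0.414 and 0.575 in lung and 215 and 201 in gut (log2 fold change -7.04, SE 0.26, adjusted p = 0.000342). The disulfide isomerases of mucin-secreting cells differed from each other. AGR3 stood at 14.3, 14.99 and 17.95 in lung and 416 and 696 in gut (log2 fold change -5.01, SE 0.31, adjusted p = 0.000919). AGR2 was abundant in both, at 152, 374 and 448 in lung and 629.7 and 1572 in gut, and did not pass (adjusted p = 0.171, and 0.0485 with the animals paired). MUC17, a membrane mucin, stood at 2.99, 2.61 and 2.69 in lung and 13.6 and 25.1 in gut (adjusted p = 0.0144, or 0.0827 without the p6 lung library). ITLN1, a lectin that binds microbial sugars, stood at 0.531, 0.686 and 0.953 in lung and 5.12 and 3.61 in gut (adjusted p = 0.0288, or 0.1200 without the p6 lung library, and 0.0664 with the animals paired). In mucosal defence 2 of 5 tested genes were higher in gut, and 0 passed without the p6 library. DMBT1, a scavenger receptor, stood at 0.903, 0.634 and 0.649 in lung and 21.1 and 9.23 in gut (adjusted p = 0.0101, or 0.0611 without the p6 lung library). DUOX2, an enzyme that makes hydrogen peroxide at the mucosal surface, stood at 0.1598, 0.236 and 0.394 in lung and 2.59 and 3.45 in gut (adjusted p = 0.0185, or 0.0907 without the p6 lung library).

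Hormones and digestive enzymes were seen in gut as well. Of 8 enteroendocrine genes 2 were higher in gut and 0 in lung, with or without the p6 library, with a median of -0.37. Without the p4 lung library 1 was higher in lung. CHGB, a granin described below, stood at 0.508, 171 and 141 in lung and 5.71 and 5.51 in gut. It overlapped between the organs and did not pass limma's test (adjusted p = 0.623). GIP, the incretin hormone of the upper intestine, stood at 2.58, 1.27 and 0.771 in lung and 614 and 183 in gut (log2 fold change -7.11, SE 0.58, adjusted p = 0.00222). NTS, neurotensin, stood at 0.283, 0.418 and 0.889 in lung and 28.5 and 17.9 in gut (log2 fold change -3.97, SE 0.35, adjusted p = 0.00278). Of 5 tested pancreatic and gastric genes 3 were higher in gut, also without the p6 library. CLPS, the colipase that anchors pancreatic lipase on fat droplets, stood at 4.22, 1.32 and 1.17 in lung and 2571 and 1838 in gut (log2 fold change -9.52, SE 0.45, adjusted p = 0.000556). PLA2G1B, the secreted phospholipase A2 of the pancreas, stood at 4.37, 4.05 and 5.64 in lung and 871 and 485 in gut (log2 fold change -6.85, SE 0.33, adjusted p = 0.0005699). Cuzd1, a protein of pancreatic acinar cells, stood at 0.263, 0.233 and 0.424 in lung and 262 and 56.9 in gut (log2 fold change -6.57, SE 0.63, adjusted p = 0.00372). Whether these transcripts came from gut cells or from pancreas was not tested.

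Cell junctions leaned to gut. Of 17 tested junction genes 10 were higher in gut (4 without the p6 library) and 0 in lung, with a median of -1.93. Claudin 1, given as cldn1, stood at 2.41, 25.2 and 20.6 in lung and 363 and 450.4 in gut (log2 fold change -5.03, SE 0.89, adjusted p = 0.0292, or 0.0715 without the p6 lung library). It was also expressed in liver, at 247, 161 and 97.1, and its lowest lung value was that of the p4 library. PKP2, a plaque protein of desmosomes, stood at 3.61, 9.497 and 7.01 in lung and 104 and 142 in gut (log2 fold change -4.07, SE 0.41, adjusted p = 0.004400). The desmosomal cadherin DSC2 stood at 5.399, 10.99 and 9.62 in lung and 129 and 126 in gut (log2 fold change -3.78, SE 0.34, adjusted p = 0.00311). CLDN7, a claudin of the lateral membrane, stood at 76.9, 55.2 and 64.5 in lung and 515 and 448 in gut (log2 fold change -2.87, SE 0.26, adjusted p = 0.00307). Lung held CLDN7 and JUP (plakoglobin, 57.9, 70.02 and 63.2) at a level well above 0.

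Regulators of the gut epithelium were below 2 in every lung library for 6 of the 9 that passed. Of 20 tested genes 9 were higher in gut (6 without the p6 library) and 0 in lung, with a median of -1.75. The homeobox gene CDX1, which specifies intestine, stood at 0.633, 0.2004 and 0.162 in lung and 192 and 199 in gut (log2 fold change -7.22, SE 0.28, adjusted p = 0.000347). ATOH1, the factor that commits cells to the secretory lineage, stood at 0.199, 0.2200 and 0.178 in lung and 63.7 and 74.2 in gut (log2 fold change -5.86, SE 0.26, adjusted p = 0.000476). HNF4G, a nuclear receptor of absorptive cells, stood at 0.382, 1.73 and 1.71 in lung and 98.1 and 113 in gut (log2 fold change -5.61, SE 0.39, adjusted p = 0.00131). In all 3 the gut libraries differed little, and no lung library rose above 2. PDX1, a homeobox factor of duodenum and pancreas, stood at 0, 0.292 and 0.177 in lung and 14.6 and 4.45 in gut (log2 fold change -3.001, SE 0.48, adjusted p = 0.0208, or 0.0903 without the p6 lung library). The lipid-sensing receptor PPARD stood at 0.357, 0.606 and 1.03 in lung and 7.17 and 12.8 in gut (log2 fold change -2.69, SE 0.36, adjusted p = 0.0119, or 0.0541 without the p6 lung library). NR1H4, the bile acid receptor, stood at 0.464, 4.38 and 3.25 in lung and 48.4 and 22.5 in gut (log2 fold change -3.40, SE 0.65, adjusted p = 0.0368, or 0.106 without the p6 lung library), with p4 lung the lowest.

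The remaining gut regulators were detected in both organs, several of them only at low levels. ELF3, an ETS factor of differentiated epithelia, stood at 1.49, 3.44 and 2.85 in lung and 44.6 and 52.1 in gut (log2 fold change -3.82, SE 0.34, adjusted p = 0.00307). KLF5, a factor of dividing crypt cells, stood at 6.04, 9.57 and 8.39 in lung and 69.6 and 78.01 in gut (log2 fold change -3.07, SE 0.28, adjusted p = 0.00342). Both also belong to the list of lung regulators. At least 2-fold higher in gut by the fitted fold change, but short of the adjusted p, were hnf4a, at 1.01, 1.12 and 0.908 in lung and 15.8 and 2.69 in gut, NKX2-3, a factor of the gut mesenchyme, at 2.98, 6.02 and 3.93 and 13.1 and 15.02, and LGR5, the receptor of crypt stem cells, at 4.04, 2.36 and 2.34 and 8.28 and 9.27. The same held for IHH (4.47, 9.74 and 6.71 and 15.9 and 17.8) and TCF7L2 (12.7, 11.4 and 10.8 and 23.1 and 28.8), the ligand and the transcription factor of hedgehog and Wnt signalling. In these 5 genes each gut library exceeded each lung library, and the adjusted p lay between 0.0531 and 0.147. Values in lung and gut overlapped for ESRRA (1.31, 0.242 and 0.661 and 3.15 and 0.767), NR1I2 (0.231, 1.03 and 1.97 and 0.854 and 4.02) and SOX9 (9.398, 10.4 and 3.23 and 5.89 and 2.33), whereas PPARA was below 3 in all libraries. OLFM4, a secreted marker of crypt stem cells in mammals, stood at 553 and 3.16 in the p4 and p5 gut libraries, on either side of the lung values of 38.2, 57.5 and 45.1.

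Of the regulators of lung, NKX2-1 alone was higher in lung. The homeobox factor stood at 8.22, 6.79 and 4.34 in lung, was listed at 0 in both gut libraries and in all brain, heart and skin libraries, and reached 0.998 in p5 liver (adjusted p = 0.00745, or 0.02402 without the p6 library). Of 59 listed lung regulators 26 were in the table and 19 were tested. Higher in gut were 3 of the 19 (2 without the p6 library): ELF3, KLF5 and TEAD1, a partner of YAP, at 4.36, 4.08 and 4.06 in lung and 12.7 and 13.5 in gut (adjusted p = 0.02901, or 0.169 without the p6 lung library, and 0.113 with the animals paired). The other 15 did not pass, and the list median was -0.06. FOXF1, a factor of the mesenchyme around lung and gut, was nearly even, at 39.6, 33.5 and 27.3 in lung and 27.3 and 32.03 in gut (log2 fold change 0.16, SE 0.27, adjusted p = 0.832). FOXP1 (23.7, 22.5 and 22.1 and 26.3 and 36.8) and ID3 (65.8, 68.8 and 56.3 and 80.02 and 92.9) stayed within 2-fold over the 5 libraries, with each gut library above each lung library. FOXA2, a pioneer factor of endoderm, stood at 12.4, 22.05 and 19.6 in lung and 8.600 and 4.105 in gut (log2 fold change 1.40, SE 0.40, adjusted p = 0.113), with 29.2, 32.7 and 16.2 in liver. HOXA5, which patterns lung mesenchyme in mice, stood at 7.96, 5.16 and 4.74 in lung and 1.28 and 2.86 in gut (log2 fold change 1.20, SE 0.37, adjusted p = 0.138), and HOXB4 at 11.6, 5.796 and 8.09 in lung and 5.72 and 2.73 in gut. For FOXA2, HOXA5 and HOXB4 each lung library exceeded each gut library. This held for 4 of the 19 tested genes, against 16.3% of all tested genes, and the opposite order for 7, against 20.7%. SOX4, SOX11, TBX2, TBX3, NFIA, NFIB and WWTR1 were below 8 in all 5 libraries, with adjusted p of 0.297 to 0.946.

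Signals of the foregut differed in a few members. Of 33 tested ligands and receptors 4 were higher in gut and 1 in lung (1 and 0 without the p6 library), with a median of -0.34. Over all tested genes 4.62% were higher in gut and 2.13% in lung, so the count in lung is near the general share. WNT2B, a Wnt ligand needed for lung specification in mice, stood at 27.3, 32.03 and 22.03 in lung and 5.402 and 5.25 in gut (log2 fold change 2.14, SE 0.27, adjusted p = 0.0105, or 0.0568 without the p6 lung library). LGR4, a receptor for R-spondins, stood at 15.02, 13.8 and 12.7 in lung and 82.8 and 60.3 in gut (log2 fold change -2.27, SE 0.26, adjusted p = 0.007304, or 0.06204 without the p6 lung library). RSPO3, one of its ligands, stood at 1.05, 3.37 and 2.99 in lung and 11.3 and 14.5 in gut (log2 fold change -2.07, SE 0.42, adjusted p = 0.0424, or 0.136 without the p6 lung library). AREG, an EGF receptor ligand, stood at 4.04, 3.304 and 1.81 in lung and 16.1 and 19.9 in gut (log2 fold change -2.26, SE 0.35, adjusted p = 0.0189, or 0.0821 without the p6 lung library). The fibroblast growth factor receptors did not pass: FGFR1 stood at 69.3, 45.04 and 38.98 in lung and 65.6 and 41.2 in gut (adjusted p = 0.952), and FGFR2 at 39.8, 29.2 and 25.5 in lung and 59.3 and 73.5 in gut (adjusted p = 0.0975).

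Transporters differed in both directions. Of 35 tested nutrient and metal transporters 13 were higher in gut (9 without the p6 library) and 2 in lung (2), with a median of -0.59. SLC5A1, the sodium-glucose cotransporter of the brush border, stood at 3.297, 2.78 and 2.54 in lung and 1833 and 1063 in gut (log2 fold change -8.50, SE 0.31, adjusted p = 0.000342). SLC7A7, the light chain of an exporter of cationic amino acids, stood at 3.47, 8.99 and 6.28 in lung and 2244 and 1487 in gut (log2 fold change -8.05, SE 0.41, adjusted p = 0.000656). SLC15A1, the carrier of small peptides, stood at 0.174, 0.7297 and 0.887 in lung and 56.3 and 40.9 in gut (log2 fold change -4.97, SE 0.34, adjusted p = 0.00129). SLC5A12, a lactate transporter outside this list and among the 12 largest differences, stood at 0.314, 0.0581 and 0.0706 in lung and 747 and 238 in gut (log2 fold change -8.53, SE 0.50, adjusted p = 0.000902). The same direction was seen for SLC6A20, a proline carrier, for the dicarboxylate and sulfate carriers SLC13A2 and SLC13A1, for the drug pump ABCB1 and for the sterol pump ABCG5. Their levels were 31.9 to 197 in gut and below 6 in lung, and all 5 passed with or without the p6 library. SLC26A3, a chloride-bicarbonate exchanger, was listed at 0 in all lung libraries and stood at 4.505 and 3.54 in gut (adjusted p = 0.00484). The 2 transporters higher in lung carry glucose and lactate. SLC2A2, a glucose carrier, stood at 206, 138 and 165 in lung and 26.03 and 22.5 in gut (log2 fold change 2.74, SE 0.27, adjusted p = 0.00422). SLC16A1, a carrier of lactate and other monocarboxylates, stood at 242, 184 and 170.5 in lung and 28.2 and 19.9 in gut (log2 fold change 2.998, SE 0.29, adjusted p = 0.00372). In both, the p4 lung library, the one with the most HBE1, was the highest; in which cells they were expressed was not tested.

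For ions and water, 3 of 13 tested genes were higher in gut (2 without the p6 library) and 1, SLC34A2, in lung. CA2, a carbonic anhydrase, stood at 0.506, 0.935 and 2.16 in lung and 12.5 and 11.4 in gut (log2 fold change -2.62, SE 0.39, adjusted p = 0.0165). ANO1, a calcium-activated chloride channel, stood at 2.68, 1.98 and 2.28 in lung and 9.18 and 14.3 in gut (log2 fold change -1.92, SE 0.31, adjusted p = 0.0219, or 0.122 without the p6 lung library, and 0.0689 with the animals paired). The water channel AQP4 stood at 16.7, 17.3 and 17.9 in lung and 12.3 and 28.03 in gut and overlapped (adjusted p = 0.931).

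Some genes of lipid uptake were higher in gut. Of 17 tested genes of fatty acid uptake and lipoprotein assembly 6 were higher in gut (5 without the p6 library) and 0 in lung, with a median of -1.28. FABP1, the fatty acid-binding protein of enterocytes and hepatocytes, stood at 21.4, 3.39 and 4.46 in lung and 6115 and 13236 in gut (log2 fold change -10.11, SE 0.76, adjusted p = 0.00176). ACSL5, an acyl-CoA synthetase, stood at 5.995, 0.284 and 0.198 in lung and 3175 and 2014 in gut (log2 fold change -10.16, SE 0.81, adjusted p = 0.00204). MOGAT2, which rebuilds triglyceride from absorbed monoglyceride, stood at 0.581, 2.58 and 1.17 in lung and 347 and 229 in gut (log2 fold change -6.94, SE 0.42, adjusted p = 0.000919). FABP1 and ACSL5 were low in liver too, at means of 19.8 and 2.52. CD36, a fatty acid translocase, stood at 0.329, 0.0809 and 0.0983 in lung and 30.7 and 10.2 in gut (log2 fold change -4.02, SE 0.48, adjusted p = 0.00821). PNPLA3, a lipid droplet lipase, stood at 9.78, 4.75 and 6.47 in lung and 126 and 96.6 in gut (log2 fold change -3.85, SE 0.35, adjusted p = 0.00312). APOB, the scaffold of chylomicrons and VLDL, stood at 12.02, 532 and 386 in lung, 2521 and 2358 in gut and 3649, 2778 and 2115 in liver. Every gut library exceeded every lung library, but lung spread over more than 40-fold, in step with ALB, and APOB did not pass (log2 fold change -4.13, SE 1.58, adjusted p = 0.216). With p4 as the only lung library it did (adjusted p = 0.000426), and 10 members of this list were then higher in gut. The partner of APOB in lipoprotein assembly, MTTP, stood at 0.9501, 0.743 and 0.753 in lung and 3.71 and 3.51 in gut (adjusted p = 0.0355, or 0.189 without the p6 lung library, and 0.1203 with the animals paired).

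Genes of surfactant lipid and sterol synthesis did not set lung apart. Of 25 tested genes 3 were higher in gut (2 without the p6 library) and 1 in lung (0), with a median of -0.24. FASN, fatty acid synthase, stood at 0.586, 0.476 and 0.315 in lung and 9.65 and 19.7 in gut (log2 fold change -3.35, SE 0.37, adjusted p = 0.00614). CHKA, the choline kinase that starts phosphatidylcholine synthesis, stood at 4.43, 15.3 and 11.2 in lung and 152 and 159 in gut (log2 fold change -3.93, SE 0.49, adjusted p = 0.00922). SREBF2, the regulator of sterol synthesis, stood at 15.01, 18.8 and 16.7 in lung and 36.7 and 47.6 in gut (adjusted p = 0.0449, or 0.216 without the p6 lung library, and 0.128 with the animals paired). The gene higher in lung was FADS1, a fatty acid desaturase, at 19.4, 19.5 and 16.04 in lung and 6.18 and 1.68 in gut (log2 fold change 2.13, SE 0.45, adjusted p = 0.0495, or 0.164 without the p6 lung library, and 0.0588 with the animals paired). PLTP, the phospholipid transfer protein, stood at 55.2, 58.6 and 45.2 in lung and 28.2 and 21.1 in gut without passing (adjusted p = 0.0758), and NR1H3, a sterol sensor, stood at 131, 111 and 100.5 in lung and 157 and 79.3 in gut. In fatty acid oxidation 5 of 14 tested genes were higher in gut and 0 in lung, and 0 passed without the p6 library and 3 with the animals paired. The acyl-CoA dehydrogenases led by level: ACADL stood at 127, 107 and 119 in lung and 496 and 435 in gut (log2 fold change -1.98, SE 0.23, adjusted p = 0.00791, or 0.0685 without the p6 lung library), and ACADM at 91.8, 110.3 and 109.8 in lung and 261 and 218 in gut (adjusted p = 0.0434, or 0.203 without the p6 lung library, and 0.158 with the animals paired). ACOX2, a peroxisomal oxidase that acts on bile acid precursors, stood at 1.75, 14.8 and 11.5 in lung and 402 and 91.3 in gut (adjusted p = 0.0454, or 0.117 without the p6 lung library).

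Globin transcripts filled much of the lung libraries. HBE1, the most abundant globin of the table, stood at 767425, 415876 and 550752 in lung and 2899 and 7226 in gut (log2 fold change 6.93, SE 0.55, adjusted p = 0.00204). It took 53.4%, 41.4% and 44.7% of all TPM in the lung libraries and 0.399% and 0.952% in the gut libraries. Of 9 tested red blood cell genes 7 were higher in lung (5 without the p6 library) and 0 in gut, with a median of 3.53. HBQ1, another globin, stood at 5957, 9758 and 10704 in lung and 22.4 and 51.5 in gut (log2 fold change 7.93, SE 0.45, adjusted p = 0.000902), and p4 lung was the lowest lung library for it although it was the highest for HBE1. ALAS2, the erythroid enzyme that starts heme synthesis, stood at 15245, 4294 and 6023 in lung and 53.99 and 52.1 in gut (log2 fold change 7.08, SE 0.55, adjusted p = 0.00195). RHCE, a Rh protein of the red cell membrane, stood at 522, 195 and 265 in lung and 2.59 and 7.18 in gut (log2 fold change 5.79, SE 0.54, adjusted p = 0.00347). SLC25A37, the iron importer of erythroid mitochondria, stood at 125, 61.9 and 73.8 in lung and 5.51 and 7.12 in gut (log2 fold change 3.53, SE 0.37, adjusted p = 0.00497). GFI1B, a transcription factor of red cells and platelets, stood at 9.66, 9.04 and 11.8 in lung and 1.18 and 1.28 in gut (log2 fold change 2.31, SE 0.28, adjusted p = 0.00813, or 0.0675 without the p6 lung library). EPB41, a protein of the red cell skeleton, stood at 14.7, 8.696 and 12.8 in lung and 2.92 and 1.19 in gut (log2 fold change 2.13, SE 0.39, adjusted p = 0.0319, or 0.148 without the p6 lung library). The erythropoietin receptor EPOR stood at 2.66, 4.202 and 4.02 in lung and 2.02 and 1.85 in gut (adjusted p = 0.313), and the skeletal protein DMTN at 1.55, 2.63 and 2.13 and 2.25 and 2.74 (adjusted p = 0.8199).

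**Figure D5:**
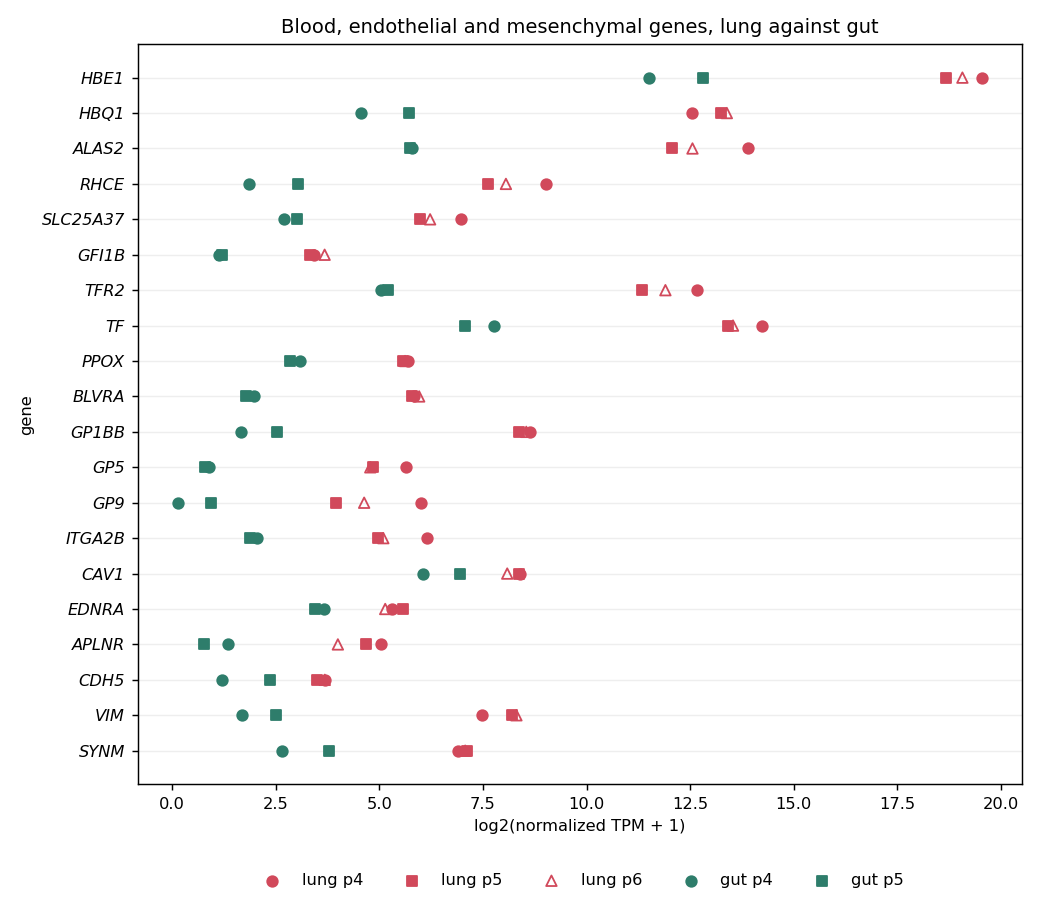
Levels of 20 blood, endothelial and mesenchymal genes in each of the 5 libraries, as log2(normalized TPM + 1). Each symbol is a library; lung (red) lies above gut (green) for each of the 20 genes.

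Some genes of heme, iron and clotting were higher in lung too. Of 10 tested genes of heme metabolism 4 were higher in lung (3 without the p6 library) and 0 in gut. PPOX, protoporphyrinogen oxidase, stood at 50.9, 46.4 and 48.2 in lung and 7.44 and 6.13 in gut (log2 fold change 2.67, SE 0.24, adjusted p = 0.00311). BLVRA, biliverdin reductase, stood at 56.3, 53.9 and 61.3 in lung and 2.91 and 2.46 in gut (log2 fold change 3.98, SE 0.24, adjusted p = 0.000919). TSPO, a mitochondrial outer membrane protein that binds porphyrins and is on none of the lists, stood at 5505, 3885 and 5790.1 in lung and 24.4 and 66.00 in gut (log2 fold change 6.92, SE 0.46, adjusted p = 0.00125). Of 11 iron genes 2 were higher in lung, also without the p6 library. TFR2, a transferrin receptor, stood at 6458, 2590.2 and 3829.7 in lung and 31.8 and 36.2 in gut (log2 fold change 6.84, SE 0.42, adjusted p = 0.000919). TF, transferrin, stood at 19383, 10973 and 11870.2 in lung, 218 and 133 in gut and 35333, 20323 and 24320.4 in liver (log2 fold change 6.31, SE 0.39, adjusted p = 0.000937). Unlike ALB, TF was highest in the p4 lung library, which was low in hepatocyte genes. Ferritin light chain, FTL, was abundant in both organs, at 67029, 75554 and 85084 in lung and 116620.0 and 83066 in gut (adjusted p = 0.681). These values are of the most abundant assembled gene given as FTL. Another given as FTL was also among the most abundant genes in p5 and p6 lung, but not in p4 lung or in gut.

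Thrombocytes are the nucleated clotting cells of amphibians. Of 9 tested genes of the list 4 were higher in lung (3 without the p6 library) and 0 in gut. They encode the von Willebrand factor receptor and the fibrinogen receptor. GP1BB stood at 397, 332 and 373 in lung and 2.15 and 4.75 in gut (log2 fold change 6.43, SE 0.32, adjusted p = 0.000656). GP5 stood at 48.9, 27.6 and 26.5 in lung and 0.846 and 0.744 in gut (log2 fold change 4.24, SE 0.35, adjusted p = 0.00238). GP9 stood at 63.2, 14.5 and 23.8 in lung and 0.1002 and 0.917 in gut (log2 fold change 4.33, SE 0.64, adjusted p = 0.0165, or 0.0675 without the p6 lung library). ITGA2B stood at 69.5, 30.4 and 33.2 in lung and 3.13 and 2.69 in gut (log2 fold change 3.44, SE 0.41, adjusted p = 0.00825). White blood cells showed no such direction. Of 14 tested leukocyte genes 1 was higher in lung and 2 in gut (1 and 0 without the p6 library), with a median of 0.21. IKZF1, a factor of lymphoid and other blood precursors, stood at 47.4, 37.4 and 41.1 in lung and 1.37 and 3.28 in gut (log2 fold change 3.75, SE 0.34, adjusted p = 0.00312). RAC2, a GTPase of blood cells, stood at 12.4, 16.99 and 22.04 in lung and 176 and 65.3 in gut (log2 fold change -2.62, SE 0.48, adjusted p = 0.0335, or 0.0944 without the p6 lung library). KIT, a receptor of mast cells and of the pacemaker cells of the gut wall, stood at 11.2, 7.97 and 10.1 in lung and 36.5 and 33.3 in gut (log2 fold change -1.75, SE 0.26, adjusted p = 0.0178, or 0.108 without the p6 lung library, and 0.0562 with the animals paired). The macrophage gene MPEG1 stood at 24.7, 102 and 79.8 in lung and 57.8 and 46.5 in gut, and LCP1, a leukocyte actin bundler, at 20.7, 102 and 83.9 and 28.4 and 79.95; in both p4 was the lowest lung library. Whole blood left in the vessels and blood cells that belong to the tissue cannot be told apart in these libraries.

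In vessels and connective tissue most members did not pass, but many leaned to lung. Each lung library exceeded each gut library for 9 of 17 endothelial genes and for 12 of 20 fibroblast and matrix genes. Over all tested genes this share was 16.3%. The opposite order held for 3 and 2 genes, against 20.7% of all tested genes. Of 17 tested endothelial genes 3 were higher in lung (1 without the p6 library) and 0 in gut, with a median of 0.73. APLNR, the apelin receptor, stood at 32.1, 24.7 and 14.99 in lung and 1.53 and 0.701 in gut (log2 fold change 3.52, SE 0.40, adjusted p = 0.007103). CAV1, the coat protein of caveolae, stood at 334, 331 and 271 in lung and 65.95 and 123 in gut (log2 fold change 1.78, SE 0.33, adjusted p = 0.0351, or 0.127 without the p6 lung library, and 0.0683 with the animals paired). EDNRA, an endothelin receptor, stood at 38.4, 46.7 and 34.3 in lung and 11.7 and 9.94 in gut (log2 fold change 1.78, SE 0.26, adjusted p = 0.0164, or 0.0837 without the p6 lung library). The endothelial cadherin CDH5, at 11.8, 10.3 and 11.8 in lung and 1.31 and 4.14 in gut, and the endothelial claudin CLDN5, at 13.2, 17.9 and 15.4 and 5.71 and 1.79, did not overlap but did not pass (adjusted p = 0.0527 and 0.0559). Of 20 fibroblast and matrix genes 3 were higher in lung and 1 in gut (2 and 0 without the p6 library, 5 and 1 with the animals paired), with a median of 0.93. VIM, the intermediate filament of mesenchymal and blood cells, stood at 177, 295 and 316 in lung and 2.198 and 4.69 in gut (log2 fold change 5.90, SE 0.39, adjusted p = 0.00123). FN1, fibronectin, stood at 135, 125 and 97.9 in lung, 13.4 and 4.24 in gut and a mean of 683 in liver (log2 fold change 3.78, SE 0.46, adjusted p = 0.00869). COL18A1, a collagen of basement membranes, stood at 23.1, 17.6 and 13.6 in lung and 5.43 and 3.97 in gut (log2 fold change 1.73, SE 0.32, adjusted p = 0.0351, or 0.102 without the p6 lung library). POSTN, a matrix protein, went the other way, at 0.339, 1.63 and 1.88 in lung and 10.8 and 7.38 in gut (log2 fold change -2.20, SE 0.43, adjusted p = 0.0398, or 0.105 without the p6 lung library).

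Only 8 of 24 smooth muscle genes were in the table, and 1 was higher in lung and 1 in gut (1 and 0 without the p6 library). SYNM, an intermediate filament protein of muscle, stood at 118, 139 and 134 in lung and 5.23 and 12.8 in gut (log2 fold change 3.82, SE 0.38, adjusted p = 0.00422). SYNPO2, an actin-binding protein of smooth muscle, stood at 1.34, 2.01 and 1.300 in lung and 6.71 and 7.202 in gut (log2 fold change -1.65, SE 0.28, adjusted p = 0.02703, or 0.159 without the p6 lung library, and 0.09203 with the animals paired). Among 6 mesothelial genes UPK1B, a uroplakin, was higher in lung, at 18.4, 19.4 and 25.2 in lung and 2.65 and 1.57 in gut (log2 fold change 2.83, SE 0.30, adjusted p = 0.00581). EEF1A2, the elongation factor of muscle and neurons in mammals and on none of the lists, stood at 1456, 702 and 1072 in lung and 14.7 and 14.6 in gut (log2 fold change 6.04, SE 0.35, adjusted p = 0.000902). Of the genes with the largest differences toward gut, 2 have not been named yet. CKMT1B, a mitochondrial creatine kinase, stood at 22.2, 8.51 and 6.72 in lung and 6682 and 9945 in gut (log2 fold change -9.41, SE 0.52, adjusted p = 0.000892). A tetraspanin-like membrane protein, tm4sf5, stood at 4.63, 0.415 and 0.252 in lung and 2917 and 2036 in gut (log2 fold change -10.15, SE 0.69, adjusted p = 0.00125).

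No member passed limma's test in 5 lists: motile cilia (11 tested, median 0.21), enteric neurons and glia (6, 0.11), cell cycle (12, 0.22), skeletal and cardiac muscle (12, 0.72) and oxygen sensing and oxygen binding (13, 0.60). An unadjusted p under 0.05 was reached by 4 members of the last list and 2 of each other list, against 2403 of all 12023 tested genes. Each lung library exceeded each gut library for 6 of 13 oxygen genes and 4 of 12 muscle genes, and the opposite held for 0 and 1. In cilia, neurons and glia, and cell cycle this order held for 1, 2 and 2 genes, and the opposite for 2, 1 and 2. Over all tested genes the shares were 16.3% and 20.7%. With the animals paired, 2 genes of skeletal and cardiac muscle passed, both higher in lung. DNAH9, a dynein of the ciliary arms, was low throughout, at 0.974, 0.629 and 0.219 in lung and 3.39 and 1.48 in gut (adjusted p = 0.174). TPPP3, a microtubule protein of ciliated cells, stood at 30.3, 29.8 and 24.99 in lung and 15.1 and 8.703 in gut (adjusted p = 0.0808). MCM6, a subunit of the replication helicase, stood at 42.00, 21.7 and 27.6 in lung and 15.7 and 12.6 in gut (adjusted p = 0.169). The oxygen-sensing factor HIF1A stood at 72.96, 42.6 and 43.4 in lung and 54.7 and 31.6 in gut and overlapped (adjusted p = 0.758). EPAS1, its relative in endothelium, stood at 38.2, 50.3 and 42.1 in lung and 28.4 and 23.2 in gut (adjusted p = 0.182). DDIT4, which is induced by low oxygen in mammals, stood at 211, 316 and 354 in lung and 161 and 61.2 in gut (adjusted p = 0.137). Of 4 tested pigment cell genes 1 was higher in gut, KIT, which also stands in the leukocyte list.

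Of the 33 hepatocyte genes 1 passed the test, higher in lung. Without the p6 library 0 passed, with the animals paired 5 were higher in lung, and with p4 as the only lung library 1 was higher in lung and 2 in gut. HPX, hemopexin, the plasma protein that binds heme, stood at 20.8, 123 and 107 in lung, 3.44 and 1.26 in gut and 196, 148 and 403 in liver (log2 fold change 4.39, SE 0.81, adjusted p = 0.0338, or 0.1196 without the p6 lung library). A less abundant copy of HPX, at 1.34, 56.9 and 37.9 in lung and 0 and 0 in gut, did not pass (adjusted p = 0.154). The gene that stands for F2 was low in liver, at 2.50, 4.39 and 3.72. A less abundant copy of F2 stood at 32.3, 30.2 and 22.3 there. The list median was 2.03, and 14 of the 33 were higher in each lung library than in each gut library, against 16.3% of all tested genes. ALB had a log2 fold change of 5.54 with an SE of 1.78 (adjusted p = 0.147, and 0.04502 with the animals paired), and its level in p4 lung was far below those in p5 and p6 lung. RBP4, the plasma carrier of retinol, behaved likewise, at 5.55, 217 and 165 in lung and 1.79 and 1.26 in gut (adjusted p = 0.151). Of the 256 genes higher in lung 34 had a mean in liver above that in lung, and 162 had their highest library of all 14 in lung. Of the 556 genes higher in gut 424 had it in gut. Choosing genes as higher in an organ raises such counts, and the shares over all tested genes are not given. The counts therefore do not show how particular the genes are to an organ.

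Genes all but missing from the p4 lung library were set apart. Below 1 in p4 lung and at least 5 in p5 and p6 lung were 84 of 12023 tested genes (0.699%), of which 64 carry a symbol. Their highest library of all 14 was a liver library for 50 (59.5%), against 16.7% of all tested genes. Of the other 34 it was a lung library for 13 and a gut library for 13. Among the 84, 17 belonged to the 41 genes that mark animal p5, against 41 of all 12023 tested genes. Of these 17, 7 were highest in liver. None of the 84 was called higher in lung, and 1, C21orf62, was called higher in gut. The rule itself makes the lung libraries differ, which widens their spread and works against a call higher in lung. With a rule of at least 16-fold, which does not need the p4 value to be near 0, there were 48 genes, and 37 of them were highest in liver.

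Described here are the 10 with the highest levels among those that are the most abundant assembled gene of their symbol. A less abundant copy of C3 (0.744, 67.3 and 43.3 in lung) and one of GLYATL1 (0, 45.4 and 39.1) reached levels within the range of these 10. Of the 10, 2 are enzymes of hepatocytes. AGXT, which detoxifies glyoxylate, stood at 0.921, 60.7 and 50.3 in lung, 2.21 and 5.52 in gut and 509, 355 and 450.3 in liver, so that p5 and p6 lung held 17.1% and 11.2% of the liver of the same title. PCK1, the enzyme that starts glucose synthesis, stood at 0.916, 37.1 and 25.6 in lung, 9.58 and 19.6 in gut and 82.01, 145 and 552 in liver. ADH7, an alcohol dehydrogenase, stood at 0.435, 142 and 96.1 in lung, 49.6 and 146 in gut and 43.2, 563 and 60.5 in liver, with p5 liver far above the other liver libraries. Another 5 were among the 41 genes that mark p5. ENDOD1, an endonuclease-domain protein, stood at 0.459, 104 and 75.2 in lung, 0.538 and 27.4 in gut and 1.13, 448 and 0.977 in liver, with 69.8 and 19.8 in p4 and p6 skin. DSE, an epimerase of dermatan sulfate, stood at 0.711, 95.3 and 79.6 in lung, 0.708 and 123 in gut and 0.968, 71.8 and 1.13 in liver. PIAS2, a SUMO ligase, stood at 0.768, 70.7 and 56.3 in lung, 0.484 and 214 in gut and 0.789, 98.3 and 1.17 in liver. In these 3 genes the p5 gut and p5 liver libraries were high and the p4 gut, p4 liver and p6 liver libraries near 0. This order of the gut and liver libraries follows from the rule that chose the 41 genes. REM2, a small GTPase, stood at 0.797, 55.7 and 39.2 in lung, 0.981 and 95.1 in gut and 0.3803, 80.03 and 0.377 in liver, with 33.7 and 25.9 in p4 and p6 brain. CLIPD6, for which no role is given here, stood at 0, 45.2 and 30.4 in lung, 0.534 and 20.2 in gut and 2.48, 29.6 and 1.08 in liver. The remaining 2 were highest elsewhere. ALLC, allantoicase, an enzyme of purine breakdown, was highest in gut, at 495 and 522 against 0.997, 49.7 and 37.4 in lung and 129, 220.4 and 64.2 in liver (adjusted p = 0.101, and 0.0304 with the animals paired). CHGB, a granin of endocrine and nerve cells, stood at 0.508, 171 and 141 in lung, 5.71 and 5.51 in gut and 4.497, 1.02 and 3.24 in liver, with 1417 and 909 in p4 and p6 brain.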

How the data were processed

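RNA of lung (3 libraries) and gut (2 libraries) was compared. The authors trimmed the reads with cutadapt and Trimmomatic and mapped them with BWA to their own assembly. This assembly was built from reads of animal p4, and 1 transcript (the longest) was kept per annotated gene. Reads were counted with featureCounts, and TPM that sum to 1000000 per library were deposited. How TPM were derived from the counts, and whether duplicates were removed by molecular identifier, is not given in the sources used here. The table holds 18924 genes, of which 10313 carry a symbol. For depth, the study gives only an approximate lower bound of read pairs that holds for every sample. Read counts per gene cannot be recovered from TPM, so precision is given by the spread between libraries.

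TPM of the 5 libraries were divided by median-of-ratios factors over the 13950 genes above 0 in all 5 (1.37 and 1.32 in gut, 0.696, 0.997 and 0.811 in lung), and the other 9 libraries were put on the same scale for levels only. Genes that reached a TPM of 1 in 2 or more of the 5 libraries, 12023 in all, were tested on log2(normalized TPM + 1) with limma 3.58.1 under R 4.3.3, with a mean-variance trend and 3 residual degrees of freedom. Benjamini-Hochberg adjustment covered all genes in the test. Calls needed an adjusted p below 0.05 together with more than 1 on the log2 scale. In simulated data with 200 changed genes of 12023, 44.5% were recovered at a log2 change of 2 and 88.0% at 4. False calls numbered 5 and 12. The simulated libraries were independent and no gene near 0 was changed. Recovery for genes near 0, or with lung libraries that share marks of 1 animal, is therefore not known. Figures and summaries were made with Python 3.11.15.

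Named are, per direction, the 12 called genes with a symbol, no overlap between the organs and the largest log2 fold change; SFTPB and KRT19; of each list the 3 highest and the 3 with the largest change, and all members of 4 lists; and the 10 genes near 0 in p4 lung with the highest level. Some genes that met these rules are not reported here. A symbol that several assembled genes carry is represented by its most abundant gene, and the counting may have split reads among such copies. Symbols were matched without regard to case and are spelled as in the table. The comparison, the members and the 32 lists were chosen with earlier results of these data known. By title, gut and lung share animals p4 and p5, and the differences between those animals correlated across genes in gut and lung (r = 0.346, and 0.334 with the p6 lung library as the partner, as the study's sample table pairs them), so a fit with the animal as a block was run beside the others. Alternatives were other pseudocounts, filters, scalings and variance models, the animal as a block, and each library left out. Averaging the p5 and p6 lung libraries, and the 8-fold limit for animal marks, were chosen after seeing the data. No sequences were used here.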

Additional observations from a re-analysis of the deposited data

How the results depend on the processing

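The 256 genes higher in lung and 556 higher in gut became 188 and 461 with a pseudocount of 5, 242 and 467 with 0.1, and 182 and 408 with no filter. TPM as deposited gave 172 and 1487, with a median log2 fold change of -0.53. The model of the 6 organs gave 474 and 863, and with the replicate block added 628 and 972. The replicate block by title gave 189 and 367, and the block that follows the study's sample sheet 211 and 390; each uses 1 residual degree of freedom and leaves 1 lung library without a partner. With 1 library left out the counts were 64 to 348 and 152 to 435, lowest without the p6 lung library. Averaging the p5 and p6 lung libraries gave 99 and 214. The spread of the p4 lung library is assumed to be that of the other groups where it stands alone (303 and 486). All other settings stayed within 1.5 times of both counts. Of the 136 called genes among the lists and named genes, no call was reversed; 83 kept it without the p6 lung library, 99 with the 2 libraries averaged, and 119 under the replicate block by title. All 25 genes of the 12 per direction and SFTPB passed under each of the 21 alternatives. The 12 per direction were chosen for the largest differences in the main fit, and most alternatives reuse the same libraries. Their passing is therefore no measure of how other calls hold. The genes near 0 in p4 lung were 84, 96 on TPM as deposited, and 20 with limits of 0.5 and 10. With an 8-fold limit, the 41 and 49 genes that mark p5 were 18 and 10. With 2 gut libraries, and lung libraries that share marks of 1 animal, the adjusted p-values rest on few independent samples. A p that misses the threshold does not show that levels were equal. Differences of genes near 0 were compressed by the pseudocount. What depth limits among them cannot be given, since read counts per gene are unknown.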

Other observations

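Other transcripts also stood in p5 and p6 lung and hardly in p4 lung. The genes below were chosen after their values were seen, and from which cells or tissues they came was not tested. CYP11B1, an enzyme of steroid hormone synthesis in adrenal tissue, stood at 2.18, 79.2 and 59.1 in lung, 0.686 and 3.06 in gut and 0.1597, 23.1 and 0.277 in liver, so that of the livers only p5 held it. PNMT, which makes adrenaline, stood at 1.14, 18.1 and 11.4 in lung, 0.4296 and 1.31 in gut and 1.83, 1.08 and 1.23 in liver. SNCG, a synuclein of nerve cells, stood at 3.16, 113 and 87.4 in lung and 4.13 and 4.51 in gut. In the p4 and p6 libraries it stood at 62.3 and 290 in brain, 59.3 and 84.4 in heart and 66.4 and 150 in skin. These 3 genes and CHGB were each higher in p5 than in p6 lung and lowest in p4 lung. GPNMB, a glycoprotein of pigment cells and macrophages, stood at 7.08, 916 and 653 in lung, 13.5 and 30.5 in gut and 2577, 6653 and 3518 in liver. The p5 and p6 lung libraries held 13.8% and 18.6% of its level in the liver of the same title.

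Muscle genes also varied between the lung libraries, but not all in the same way. MYH1 and TNNI2 were lowest in p4 and highest in p5 lung, as the hepatocyte sum was. MYH1, a fast myosin heavy chain, stood at 22.9, 365 and 214 in lung and 0 and 5.06 in gut, with up to 39226 in skin. TNNI2, fast troponin I, stood at 13.8, 123 and 82.99 in lung and 3.53 and 9.31 in gut. TNNT1, slow troponin T, was high in p6 lung alone, at 1.400, 3.704 and 66.4, and among the liver libraries in p6 alone, at 6.01, 1.83 and 127. TNNI3, cardiac troponin I, was highest in p4 lung, at 79.3, 5.18 and 10.04. None of these 4 genes passed limma's test between lung and gut, but with the animals paired MYH1 and TNNI2 passed as higher in lung (adjusted p = 0.003199 and 0.0458).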
